A study of Mus musculus with 18 samples.

Results

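The comparison set 3 arrays of macrophages with both copies of Wbp7 lost (Wbp7-/-, KO) against 3 arrays with 1 copy lost (Wbp7+/-, HET), all of them after 2 h of lipopolysaccharide (LPS). These 6 arrays, of 18 in the series, were chosen by their labels alone, and 21137 of the 25344 probe sets on them, those assigned to a single gene, were compared as KO minus HET on the log2 scale. Together these probe sets stand for 19475 genes. The cells of both groups were bone marrow-derived macrophages on day 7 of differentiation in L929-conditioned medium, from mice of a mixed background (94% C57BL/6 and 6% 129/Ola), and the LPS was given at 10 ug/ml. The other 12 arrays were untreated cells and cells given LPS for 4 h, 3 for each genotype and time. The HET cells are the control, so that both groups carry at least 1 lost copy, and how the allele was made, the age and sex of the mice and whether the 3 arrays of a group came from separate animals are not given in the labels. If they did not, the p-values below measure only the spread between these arrays, which may be technical.

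Wbp7, also named Kmt2b or Mll2, encodes a methyltransferase that adds methyl groups to lysine 4 of histone H3, a mark of active promoters. LPS, a part of the outer membrane of Gram-negative bacteria, is sensed by Tlr4 with its co-receptor Cd14, a protein held on the cell surface by a glycosylphosphatidylinositol (GPI) anchor. From Tlr4 the signal runs through Myd88 to NF-kB and the early cytokines, and through Ticam1 to Irf3 and interferon beta. Secreted interferon then acts back on the cells and turns on antiviral genes, guanylate-binding GTPases and chemokines such as Cxcl9. The title of the series names GPI anchor synthesis as the step through which Wbp7 acts on macrophage function.

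The probe set of Wbp7 itself was at 10.69, 10.96 and 10.33 in HET replicates 1 to 3 and at 10.73, 10.42 and 10.66 in the KO replicates, so that the groups overlapped (difference −0.06, SE 0.156, adjusted p = 0.917). The sources used here do not say which exons its probes cover, and it therefore does not check the genotype labels. The 6 arrays held the transcripts of macrophages: the signals of Adgre1 (F4/80) lay between 13.64 and 13.72, those of Csf1r between 13.65 and 13.94 and those of Cd68 between 13.83 and 13.94. Of 25 macrophage identity genes, limma called 0, and 2 had an unadjusted p under 0.05, 1 lower and 1 higher (3 without HET replicate 1). Other members, named here after their values were seen, were less even or dimmer. Fcgr4 differed by −1.13 and Cx3cr1 by 0.85, and Cebpa was at 8.58 to 8.86 in HET and 9.23 to 9.40 in KO. Marco was at 7.73 to 8.76 in HET and 7.92 to 8.78 in KO. Among 78 markers of neutrophils and progenitors, lymphocytes and NK cells, erythroid cells, stromal cells, dendritic cells and mast cells, 0 were called and 7 had an unadjusted p under 0.05. Over all 21137 probe sets, 1278 were lower and 1837 higher at an unadjusted p under 0.05. The 17 lymphocyte and NK cell markers lay between 4.91 and 9.98, with 7 of them, Cd3g and Ms4a1 included, under the first quartile of each 2 h array (6.84 to 7.01) on all 6 arrays. The brightest of them, Cd79b, was at 8.37 to 9.57 in HET and at 9.63 to 9.98 in KO, and its part in the results was not tested. Some markers of the other lists, named here after their values were seen, were brighter. Ngp (neutrophil) was at 10.21 to 12.28 in HET and 9.86 to 11.20 in KO, and Sparc (stromal) at 7.83 to 10.43 and 7.64 to 9.78. Hdc (mast cell) was at 9.43 to 10.54 and 8.38 to 9.03. Other neutrophil and progenitor markers, also named after their values were seen, were higher in KO. Mpo was at 7.63 to 9.50 in HET and 9.17 to 9.77 in KO, and Elane at 8.33 to 9.90 and 9.54 to 10.16. Ctsg was at 7.43 to 9.01 in HET and 9.31 to 9.54 in KO. Of that list, 2 were higher and 1 lower at an unadjusted p under 0.05 in limma. Whether such cells were present was not tested.

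HET replicate 1 stood apart before any test. The SD of the probe set differences between it and the other HET arrays was 0.506 and 0.526, against 0.278 between HET replicates 2 and 3 and 0.177 to 0.256 among the KO arrays. In HET replicate 1, 32 of 36 measured cell cycle genes were more than 1 log2 unit below the other HET arrays, with a median of −2.76. The mean of that list was 8.38 in HET replicate 1 and 11.09 to 11.19 in the other 5 arrays. Bub1, a spindle checkpoint kinase, was at 7.01 in it and between 11.32 and 11.70 elsewhere. Of the LPS-response lists, the cytokine mean was 11.11 in HET replicate 1, against 10.44 and 10.25 in HET replicates 2 and 3, and the mean of MHC class II and co-stimulatory genes was 11.67, against 10.85 and 10.03. The counts below and the genes whose call depends on this array are therefore also given without it, and the part that its state has in the results was not tested beyond that. In these fits of KO minus HET at 2 h, only its 2 h array was left out unless all 3 times are named. The untreated and 4 h arrays of HET replicate 1, in which Bub1 was at 7.78 and 6.58, then stayed in the fit.

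Between the genotypes, signals differed in both directions, and the called differences reached further down than up. At an adjusted p under 0.05 limma called 585 probe sets (2.77% of those tested) of 550 genes, 334 lower (1.58%) and 251 higher (1.19%) in KO. The groups did not overlap for any of the 585. Among all probe sets, 11.6% did not overlap with KO higher and 7.87% with KO lower. The lower probe sets had the wider range: 168 of them differed by more than 2-fold and 35 by more than 4-fold, against 22 and 1 of the higher ones, and the median differences were −1.0 and 0.56. Without the 2 h array of HET replicate 1, 117 probe sets were called lower (0.554%) and 45 higher (0.213%), 155 of these 162 were among the 585, and all 585 kept their sign. Without HET replicate 1 at all 3 times, 272 were called lower and 167 higher, and 323 of these 439 were among the 585. With arrays centred on their medians the split was 360 lower and 151 higher, and with quantile normalization 319 lower and 159 higher, so that the share of higher calls moved from 42.9% to 29.5% and 33.3%. Leaving out HET replicate 2, HET replicate 3, KO replicate 1, KO replicate 2 or KO replicate 3 gave 1015, 341, 184, 195 and 254 called probe sets. Which direction held more calls depended on the setting: array weights gave 437 lower and 466 higher, leaving out HET replicate 2 gave 504 lower and 511 higher, and at an unadjusted p under 0.05 1278 probe sets were lower and 1837 higher. A fit of the 6 arrays alone, which has fewer arrays to estimate the spread from, called 35 probe sets. The main fit treats all arrays as independent, with 12 residual degrees of freedom. Arrays that share genotype and number deviated alike across times (correlations 0.32 to 0.79), so that they are not fully independent. With the replicate number within genotype as a random block, 556 probe sets were called, 361 lower and 195 higher. What part this sharing has in the drop from 585 to 35 was not tested.

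**Figure D1:**
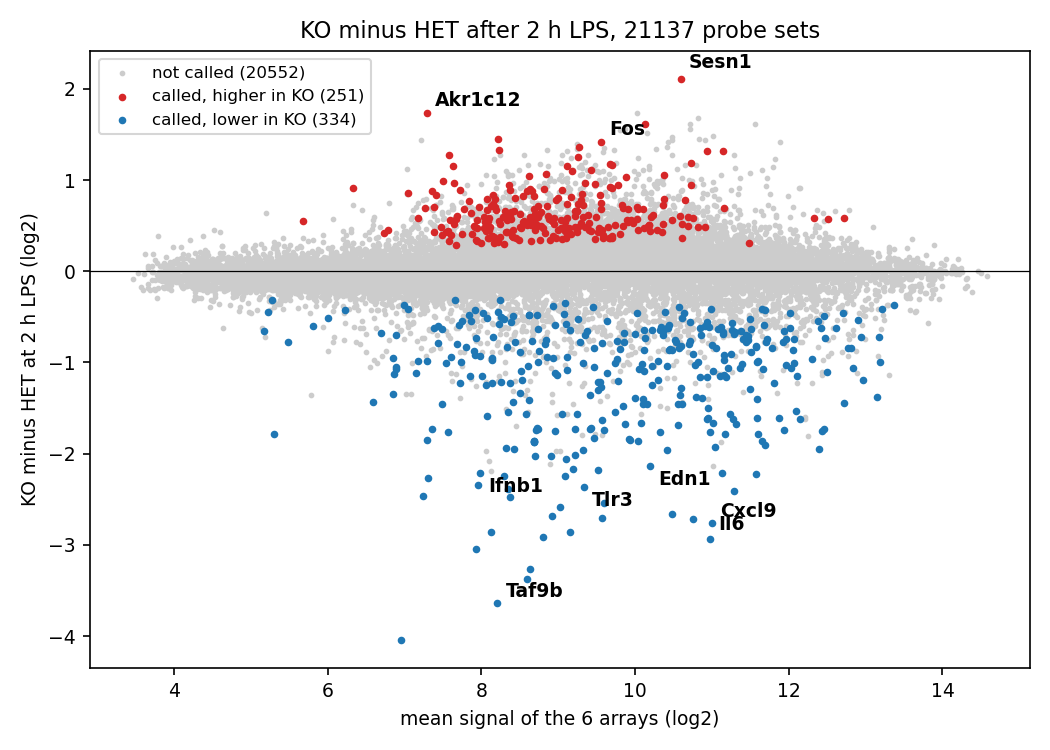
Difference between KO and HET at 2 h LPS (log2, vertical axis) against the mean signal of the 6 arrays (log2, horizontal axis) for 21137 probe sets. The 334 probe sets called lower in KO (blue) reach −4.04, while the 251 called higher (red) reach 2.11.

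A stricter group was formed by the probe sets called whichever of the 6 arrays was left out. It held 83 lower (0.393%) probe sets, of 76 genes, and 32 higher (0.151%), of 32 genes, with median differences of −1.62 and 0.77. With HET replicate 1 left out these medians were −1.40 and 0.70. Taf9b, Tlr3, Il6, Ifnb1 and Akr1c12, described below, belong to it.

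**Figure D2:**
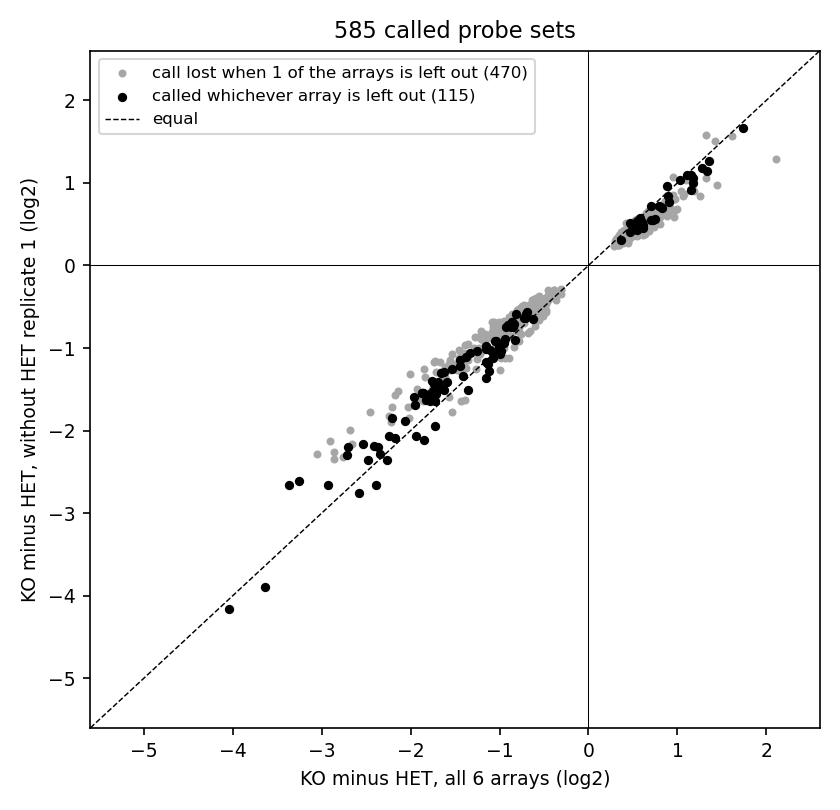
KO minus HET (log2) of the 585 called probe sets with all 6 arrays (horizontal axis) and without HET replicate 1 (vertical axis); the dashed line marks equal values. All 585 points keep their sign, and the 115 black points are those called whichever array is left out.

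Cytokine genes were lower in KO as a group. Of 29 measured, 28 had a difference below 0, 8 were called lower and 0 higher, and the list's median was −0.94 (−0.68 without HET replicate 1), while the median over all probe sets was 0.00. With that array left out, 5 were called. Over all probe sets, 1.58% were called lower with all arrays and 0.554% without that array. The 8 called genes were Il6, Tnfsf10, Ifnb1, Edn1, Il27, Tnfsf15, Il15 and Il1a.

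Il6, a cytokine of the acute phase response and B cell help, had signals of 12.98, 11.59 and 12.74 in the HET arrays and of 9.49, 9.46 and 9.56 in the KO arrays. The KO arrays lay close together, well below the lowest HET array. The difference was −2.93 (SE 0.269, n = 3 per group), a 7.65-fold lower signal (adjusted p = 3.75e-05), and it was −2.66 without HET replicate 1 (adjusted p = 0.000133). Ifnb1, which encodes interferon beta, was at 9.81, 8.78 and 8.68 in HET and at 7.08, 6.89 and 6.65 in KO. It was 4.63-fold lower in KO (difference −2.21, SE 0.267, adjusted p = 0.000635), and the difference was −1.85 without HET replicate 1 (adjusted p = 0.00111). The KO signals lay near the first quartile of the 2 h arrays (6.84 to 7.01), so that the fold is one against a dim signal. In HET cells Ifnb1 was 2.88 above its untreated level at 2 h, and in KO cells 0.66.

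Tnfsf10, the death ligand TRAIL, was at 11.61, 9.97 and 10.99 in HET and at 7.91, 7.64 and 9.40 in KO (difference −2.54, SE 0.423, adjusted p = 0.00576). Tnfsf15, the T cell co-stimulator TL1A, was at 12.21, 11.16 and 12.17 in HET and at 10.66, 9.76 and 10.14 in KO (−1.66, SE 0.274, adjusted p = 0.00559). Both stayed called whichever array was left out, as did Il6 and Ifnb1. The other 4 did not. Edn1, the vasoconstrictor endothelin-1, differed by −2.14 (adjusted p = 0.0148) and lost its call when KO replicate 2 was left out (adjusted p = 0.0692). Il27, a regulator of T cells, differed by −1.93 (adjusted p = 0.0127; 0.0542 without HET replicate 1), Il15, a growth factor of NK cells, by −1.62 (adjusted p = 0.0098; 0.0508 without HET replicate 1), and Il1a, an inflammatory alarm signal, by −1.19 (adjusted p = 0.0209; 0.117 without HET replicate 1). With HET replicate 1 left out at all 3 times, Il27 and Il15 were called (adjusted p = 0.0388 and 0.0298) and Il1a was not (0.0708).

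Several cytokines that LPS induces strongly did not pass the test. Tnf was at 14.13, 14.09 and 14.01 in HET and at 14.05, 13.79 and 13.91 in KO, with overlapping groups (−0.16, SE 0.126, adjusted p = 0.621). These signals were close to those of Lyz2 (14.10 to 14.25 in HET), one of the brightest macrophage identity genes. Whether the scale limits differences between such bright signals was not tested. Il1b differed by −0.93 (adjusted p = 0.157), Il12b by −1.10 (0.194) and Il18 by −1.04 (0.0506), with groups that did not overlap. Il10 ranged from 8.96 to 12.12 in HET and from 7.86 to 10.31 in KO, and its difference of −1.39 (SE 0.73, adjusted p = 0.412) became −0.68 without HET replicate 1. Il23a behaved likewise, with −1.35 in all arrays and −0.11 without that array. Csf2 was the member above 0, at 0.12 (adjusted p = 0.952), and turned to −0.13 without HET replicate 1.

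**Figure D3:**
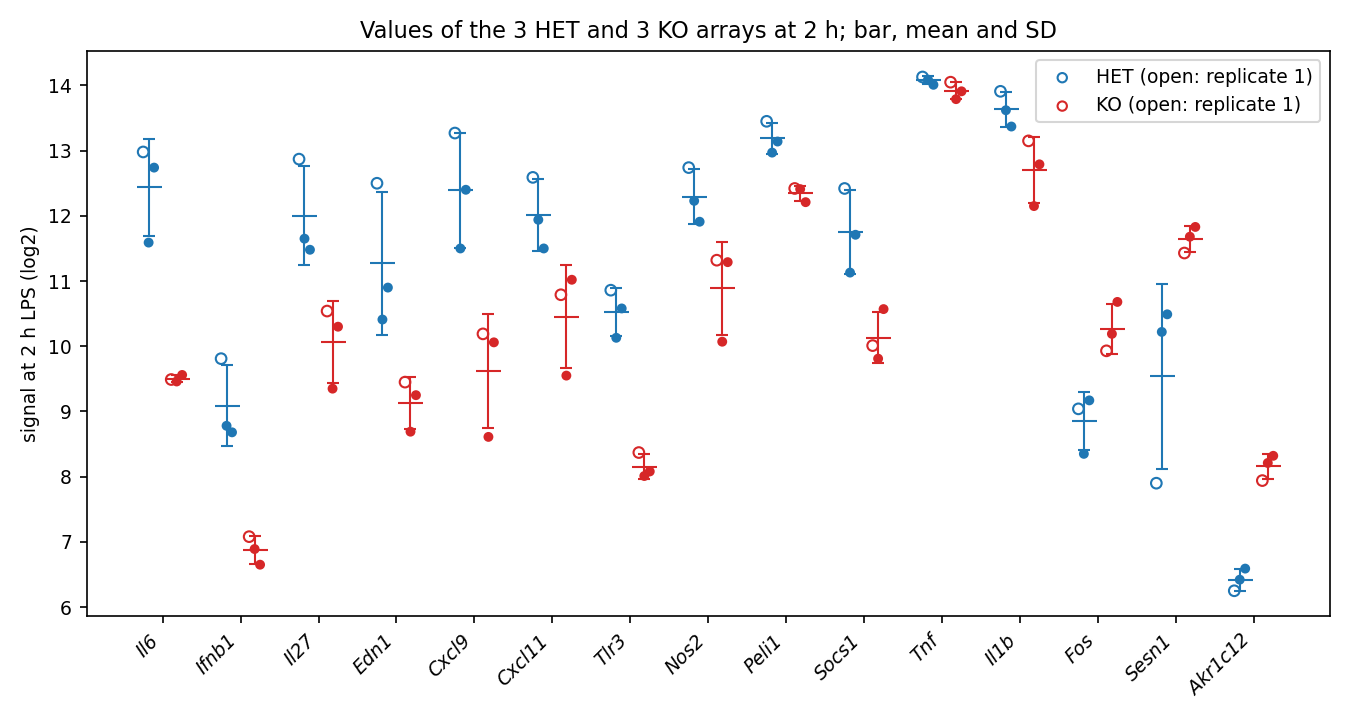
Signal (log2) of 15 genes on the 3 HET (blue) and 3 KO (red) arrays at 2 h LPS; open symbols are replicate 1, bars are the mean and SD. The KO arrays of Il6 lie between 9.46 and 9.56, below all HET arrays (11.59 to 12.98), while the Tnf arrays overlap.

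Il6 and Ifnb1, both lower in KO, belong to the stricter group, while Cxcl9, also lower, and Fos, higher in KO, do not. The promoters of these genes are shown as examples of both directions. Each is the stretch of 250 bases before the start of transcription on the gene's strand, from RefSeq (GRCm38.p6), with the letters that match a motif searched for in capitals. The stretches are chr5:30012864-30013113 (+ strand, Il6), chr4:88522795-88523044 (− strand, Ifnb1), chr5:92328080-92328329 (− strand, Cxcl9) and chr12:85473640-85473889 (+ strand, Fos).
Il6: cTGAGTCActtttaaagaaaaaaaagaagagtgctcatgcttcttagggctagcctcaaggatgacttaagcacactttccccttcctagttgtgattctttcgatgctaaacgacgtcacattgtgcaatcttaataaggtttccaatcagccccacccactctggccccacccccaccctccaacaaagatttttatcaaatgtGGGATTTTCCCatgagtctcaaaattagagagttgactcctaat
Ifnb1: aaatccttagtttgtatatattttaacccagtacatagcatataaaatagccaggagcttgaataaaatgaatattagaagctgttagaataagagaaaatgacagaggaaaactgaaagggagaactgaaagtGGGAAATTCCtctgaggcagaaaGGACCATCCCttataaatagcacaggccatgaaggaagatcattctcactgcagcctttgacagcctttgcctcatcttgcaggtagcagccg
Cxcl9: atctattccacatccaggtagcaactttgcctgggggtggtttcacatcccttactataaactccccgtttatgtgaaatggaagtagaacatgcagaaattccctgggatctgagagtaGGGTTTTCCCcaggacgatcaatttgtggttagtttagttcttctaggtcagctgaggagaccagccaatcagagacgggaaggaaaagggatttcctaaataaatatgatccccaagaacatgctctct
Fos: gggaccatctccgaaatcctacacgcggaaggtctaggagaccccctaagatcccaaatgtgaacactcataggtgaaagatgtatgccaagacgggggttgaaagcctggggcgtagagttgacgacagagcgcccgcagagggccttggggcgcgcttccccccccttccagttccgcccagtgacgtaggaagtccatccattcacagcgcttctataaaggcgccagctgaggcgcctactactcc

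The motifs were searched on both strands as NF-kB (GGGANNNNCC), AP-1 (TGANTCA), an interferon-stimulated element or ISRE (GAAANNGAAA) and a Stat-binding GAS element (TTCNNNGAA). Il6 held 2 overlapping NF-kB matches on the same bases near its start and 1 AP-1 match, Ifnb1 held 2 NF-kB matches and Cxcl9 held 1. The Fos window held no match to these letters. Of the 19475 genes tested, 15507 had a promoter in the RefSeq table, and of these windows 23.1% held the NF-kB letters, 7.1% AP-1, 3.4% ISRE and 7.7% GAS. Among the 251 called-lower genes with a promoter these shares were 29.1%, 10.4%, 12% and 9.56%, and among the 203 called-higher genes 21.7%, 3.94%, 0.493% and 8.37%. For the 64 genes of the stricter lower group, the shares were 32.8%, 10.9%, 7.81% and 12.5%, and for the 26 genes of the stricter higher group 34.6%, 3.85%, 0.0% and 7.69%. The NF-kB letters were thus about as frequent in both stricter groups. A match is a run of letters and not a measured binding site, and a window without a match can hold a site spelled otherwise. The Ifnb1 window, for example, holds GAAA repeats at another spacing, which the ISRE letters do not match.

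Among the chemokine genes, 4 were called, all of them lower, where 1.58% of all probe sets were called lower. Of 12 CXC chemokines 2 were called lower, and of 14 CC and CX3C chemokines 2. With the 2 h array of HET replicate 1 left out limma called 0 of these, with 4 at an unadjusted p under 0.05. With that replicate left out at all 3 times, 1 of each list was called, Cxcl9 (adjusted p = 0.0425) and Ccl12 (0.013). Cxcl9, which draws T cells to sites of interferon gamma and LPS exposure, was at 13.27, 11.50 and 12.40 in HET and at 10.19, 8.61 and 10.06 in KO. All KO arrays lay below the HET arrays (difference −2.76, SE 0.588, adjusted p = 0.0226), and without HET replicate 1 the difference was −2.32 (adjusted p = 0.128). Cxcl11, a ligand of the same receptor Cxcr3, differed by −1.56 (adjusted p = 0.0359; 0.195 without HET replicate 1). Ccl12, a monocyte attractant, differed by −1.57 (adjusted p = 0.0272; 0.0974 without that array) and Ccl4, the ligand MIP-1 beta, by −0.72 (adjusted p = 0.0377; 0.2 without it). The neutrophil attractants Cxcl2 and Cxcl3 differed by −0.43 (adjusted p = 0.537) and −0.81 (0.559), and Ccl22 by −0.98 (0.684), each with overlapping groups.

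Of the interferon response genes in 3 lists, 33 of 52 were called lower in KO and 0 higher, where 1.58% and 1.19% of all probe sets were. Of 36 antiviral genes, 23 were called lower, all 36 had lower signals with no overlap between the groups, and the median was −0.86 (−0.66 without HET replicate 1). Over all probe sets, 7.87% were lower in KO with no overlap. Of 10 interferon-induced GTPases 7 were called lower (median −1.43; −0.96 without that array), and of 6 p200 genes, which encode DNA sensors and their relatives, 3 were (median −1.18; −0.99). Leaving out the 2 h array of HET replicate 1 gave calls for 3, 2 and 1, and leaving that replicate out at all 3 times for 9, 4 and 2. These lists were also below 0 in untreated cells, with medians of −0.68, −0.62 and −1.26, and the medians at 4 h were −0.30, −0.89 and −0.35. These medians include HET replicate 1. Untreated, Mx1 was at 10.60, 9.34 and 8.78 in HET and at 8.47, 7.58 and 8.90 in KO, with overlapping groups. Of the genes described below, Gbp7, Cmpk2, Oasl1, Ifit2, Mx1 and Ifi208 were not called untreated by limma (adjusted p = 0.107, 0.125, 0.181, 0.241, 0.599 and 0.67).

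Iigp1, a GTPase that attacks the vacuoles of intracellular parasites, was at 11.69, 8.87 and 10.28 in HET and at 6.62, 6.73 and 7.38 in KO. The HET arrays spread over more than 2 log2 units and still lay above all KO arrays. Its KO signals of 6.62 and 6.73 lay under the first quartile of each 2 h array, in the dim range. The difference was −3.37 (SE 0.525, adjusted p = 0.00393) and −2.66 without HET replicate 1 (adjusted p = 0.00982). Gbp7, a guanylate-binding protein, was at 12.51, 11.50 and 12.17 in HET and at 10.16, 9.84 and 10.84 in KO (−1.78, SE 0.256, adjusted p = 0.00208; −1.56 and 0.0119 without HET replicate 1). Iigp1 and Gbp7 stayed called whichever array was left out. Gbp5 (−1.74) and Gbp3 (−1.29) were called with all arrays and not without HET replicate 1 (adjusted p = 0.117 and 0.152), and Gbp4 (−2.08) was not called (adjusted p = 0.113). With that replicate left out at all 3 times, Gbp5 was called (adjusted p = 0.0397) and Gbp3 was not (0.0927).

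Of the antiviral genes, Oasl1, an inhibitor of Irf7 translation, was at 13.76, 12.93 and 13.24 in HET and at 11.39, 11.56 and 11.73 in KO. Cmpk2, a mitochondrial nucleotide kinase, was at 13.72, 12.83 and 13.42 in HET and at 11.34, 11.36 and 12.08 in KO. Their differences of −1.75 (SE 0.286, adjusted p = 0.00536) and −1.73 (SE 0.299, adjusted p = 0.00782) held at adjusted p = 0.0307 and 0.0442 without HET replicate 1. Ifit2, an inhibitor of viral translation, differed by −1.95 (adjusted p = 0.026), Mx1, a GTPase that blocks influenza virus, by −1.91 (0.0311) and Isg20, an RNA exonuclease, by −1.78 (0.0152), and these 3 calls were lost without the 2 h array of HET replicate 1 (adjusted p = 0.136, 0.168 and 0.0853). With that replicate left out at all 3 times, Mx1 and Isg20 were called (adjusted p = 0.045 and 0.0187) and Ifit2 was not (0.0528). Ifit3 (−1.81) and Ifit1 (−1.14) did not pass with all arrays (adjusted p = 0.0847 and 0.108).

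In the p200 family, Ifi208 was at 11.55, 9.20 and 10.04 in HET and at 6.90, 5.95 and 8.16 in KO (−3.26, SE 0.562, adjusted p = 0.00752; −2.61 and 0.0315 without HET replicate 1). Ifi209 (−2.21, adjusted p = 0.0312) and Aim2, which senses cytosolic DNA and builds an inflammasome (−0.69, adjusted p = 0.0126), were called with all arrays and not without HET replicate 1 (adjusted p = 0.172 and 0.0698). With that replicate left out at all 3 times, Aim2 was called (adjusted p = 0.0418) and Ifi209 was not (0.0548). The near-identical members of this family can share probes, so that which of them differed is uncertain. The same holds for Ifi206 (−2.91), Ifi213 (−2.66) and Ifi214 (−2.46), and for Ifit3b (−2.86), which is an Ifit gene and not a p200 gene. All of these were called with all arrays and not without HET replicate 1 (adjusted p = 0.164, 0.148, 0.089 and 0.12). They were called with that replicate left out at all 3 times (adjusted p = 0.0491, 0.0145, 0.0227 and 0.0346). Of 21 interferon receptors, Irf and Stat genes, limma called 0, with 11 at an unadjusted p under 0.05, all of them lower. Irf7 differed by −1.23 (adjusted p = 0.0825) and Irf1 by −0.90 (adjusted p = 0.0507).

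Early transcription factors did not move one way. Of 27 measured, 2 were called higher and 1 lower, where 1.19% and 1.58% of all probe sets were, and the list's median was −0.02. Fos, a subunit of AP-1, was at 9.04, 8.35 and 9.17 in HET and at 9.93, 10.19 and 10.68 in KO. All KO arrays were above all HET arrays (difference 1.42, SE 0.262, adjusted p = 0.0114; 1.51 and 0.0298 without HET replicate 1), and the call was lost without KO replicate 3 (adjusted p = 0.0535). In HET cells the log2 change of Fos from untreated to 2 h was −1.93, and in KO cells −0.32. Myc, a driver of growth genes, was at 9.96, 11 and 10.50 in HET and at 11.73, 11.92 and 11.78 in KO (1.32, SE 0.321, adjusted p = 0.0407; 1.06 and 0.221 without HET replicate 1). Csrnp1 was lower (−1.39, adjusted p = 0.0494; 0.262 without that array), and Atf3, a repressor of Il6 and other cytokine genes, did not pass (−0.59, adjusted p = 0.0593). Of 14 NF-kB subunits and inhibitors, 1 was called: Rel, the c-Rel subunit, at −0.37 (SE 0.0812, adjusted p = 0.0264; 0.135 without HET replicate 1).

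Among 22 feedback regulators 3 were called lower, against 1.58% of all probe sets. Of these 3 genes, 2 were also called without HET replicate 1. Socs1, which blocks Jak kinases, was at 12.42, 11.13 and 11.71 in HET and at 10.01, 9.81 and 10.57 in KO (−1.62, SE 0.268, adjusted p = 0.00559; −1.29 and 0.0198 without HET replicate 1). Peli1, a ubiquitin ligase of Toll-like receptor signalling, was at 13.45, 12.97 and 13.14 in HET and at 12.42, 12.41 and 12.21 in KO (−0.84, SE 0.139, adjusted p = 0.0056; −0.71 and 0.0297). Both groups of values lay apart in each gene, and both calls held whichever array was left out. Cish, another Socs family member, differed by −1.45 (adjusted p = 0.0237; 0.133 without HET replicate 1). Nos2, the inducible nitric oxide synthase, was at 12.74, 12.23 and 11.91 in HET and at 11.32, 10.07 and 11.29 in KO (−1.40, SE 0.274, adjusted p = 0.0158; 0.0869 without HET replicate 1). Ppp1r15a, a phosphatase subunit that ends the integrated stress response, differed by −1.54 (adjusted p = 0.0163; −1.07 and 0.0315 without HET replicate 1), and lost its call without KO replicate 2 (adjusted p = 0.0708).

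Of the LPS receptor parts and Toll-like receptors, 1 of 15 was called, where 2.77% of all probe sets were. Tlr3, the receptor for double-stranded RNA, was at 10.86, 10.13 and 10.58 in HET and at 8.37, 8.01 and 8.08 in KO. It was 5.17-fold lower in KO (−2.37, SE 0.206, adjusted p = 2.98e-05; −2.20 and 0.000133 without HET replicate 1), and it was also called untreated (−1.41, adjusted p = 0.00395) and at 4 h (−1.38, adjusted p = 0.00298). Cd14 was at 13.92, 13.57 and 13.50 in HET and at 13.49, 13.34 and 13.37 in KO, a difference of −0.26 that did not pass (SE 0.167, adjusted p = 0.538). Of 18 Tlr4 signalling genes, Map3k8, the kinase Tpl2, was called (−1.0, adjusted p = 0.0406; 0.199 without HET replicate 1), and Myd88 was not (−0.41, adjusted p = 0.0847). Of 11 MHC class I processing genes 4 were called lower, against 1.58% of all probe sets. These were Nlrc5, Psmb9, Tap1 and Psme1, at −1.28, −0.76, −0.74 and −0.41. Without HET replicate 1 limma called 0 of the 11, and 7 had an unadjusted p under 0.05.

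Of 30 GPI anchor biosynthesis genes, 2 were called lower and 1 higher, each on the probe set with the highest mean, where 1.58% and 1.19% of all probe sets were. At an unadjusted p under 0.05, 4 were lower and 3 higher, against 1278 and 1837 of all 21137 probe sets. The groups did not overlap for 5 lower and 6 higher, against 7.87% and 11.6% of all probe sets. Pigv (−0.71, adjusted p = 0.095), Pgap1 (−0.61, adjusted p = 0.122) and Piga (0.46, adjusted p = 0.313) did not pass. Pigp, which belongs to the enzyme complex that adds N-acetylglucosamine to phosphatidylinositol as the first step of the anchor, has 2 probe sets. On one the signals were 8.74, 8.99 and 9.21 in HET and 5.54, 5.22 and 4.06 in KO, the lowest difference of all probe sets (−4.04, SE 0.359, 16.4-fold, adjusted p = 3.28e-05; −4.16 and 0.000133 without HET replicate 1). Its KO signals lay under the first quartile of each 2 h array, in the dim range of the scale. On the other the signals were 9.21, 9.01 and 9.15 in HET and 8.79, 8.84 and 8.60 in KO (−0.38, SE 0.0944, adjusted p = 0.044; −0.34 and 0.207 without HET replicate 1). The probe sets agreed in direction and differed in size. Pigz, which adds a mannose to the anchor, differed by −0.49 (adjusted p = 0.0167; 0.0889 without HET replicate 1), and Pigh, a partner of Pigp in the same enzyme, by 0.44 (adjusted p = 0.0469; 0.25 without that array). Without the 2 h array of HET replicate 1, 0 of the 30 biosynthesis genes were called, and without that replicate at all 3 times 2 were called lower. Of 20 GPI-anchored protein genes limma called 0, with 7 at an unadjusted p under 0.05. Of these 20, 1 was called lower without the 2 h array of HET replicate 1, and 1 without that replicate at all 3 times.

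A part of the differences at 2 h was present without LPS. Of the 334 probe sets called lower, 58 were also called lower untreated and 104 at 4 h, 45 at both, and 217 were called at 2 h alone. Of the 251 called higher, these counts were 9, 66, 7 and 183. In all, 96 probe sets (0.454%) were called untreated and 530 (2.51%) at 4 h, in either direction. That a probe set passed at 2 h and missed the threshold at another time does not show that its differences are unequal, and the test of that is given further on. In the stricter group, 27 of 83 lower probe sets were called at all 3 times, 26 at 2 h and 4 h and 30 at 2 h alone, and of 32 higher ones 4, 10 and 17, with 1 at 2 h and untreated.

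The 52 probe sets called at all 3 times stood for 44 genes on 19 chromosomes, 37 lower and 7 higher. Taf9b, a histone fold subunit of the TFIID transcription complex, was at 9.53, 10.15 and 10.41 in HET and at 6.55, 6.43 and 6.20 in KO. It was 12.5-fold lower (−3.64, SE 0.257, adjusted p = 2.77e-06; −3.89 and 2.14e-06 without HET replicate 1), with KO signals under the first quartile of each 2 h array, so that the fold is one against a dim signal. The difference was −4.06 untreated and −3.17 at 4 h. Of 15 TFIID subunits it was the 1 called. Stau2, which binds double-stranded RNA, was at 9.01, 9.86 and 9.75 in HET and at 7.40, 7.11 and 6.94 in KO (−2.39, SE 0.258, adjusted p = 0.000242). Maged1, a melanoma antigen family member, was at 9.94, 10.57 and 10.44 in HET and at 8.12, 7.53 and 7.56 in KO (−2.58, SE 0.24, adjusted p = 4.33e-05). For Taf9b, Stau2 and Maged1, HET replicate 1 was the lowest HET array, and their differences without it were larger (−2.66 for Stau2 and −2.76 for Maged1).

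Dip2c was called on 4 probe sets, with differences of −2.48, −2.34, −1.78 and −0.87 and adjusted p-values of 2.61e-07, 1.68e-07, 0.000607 and 0.00267. Fmnl2, a formin that elongates actin filaments, differed by −2.70 (adjusted p = 0.00393; −2.20 and 0.0141 without HET replicate 1), and Zdhhc2, a palmitoyltransferase, by −2.27 (adjusted p = 0.00078; −2.36 and 0.00278). The KO signals of Zdhhc2 lay under the first quartile of each 2 h array. Among genes not called untreated, Adgrg6, an adhesion receptor, differed by −2.06 at 2 h and −1.76 at 4 h (adjusted p = 0.000889 and 0.00295), Dcbld2 by −2.24 and −2.45 (0.00168 and 0.000776), Ednrb, an endothelin receptor, by −1.95 and −1.61 (0.00559 and 0.0166), and Ptch1, the Hedgehog receptor, by −1.96 and −1.69 (0.00117 and 0.00319). Slc30a4, a zinc transporter, differed by −2.86 (adjusted p = 0.0197; 0.11 without HET replicate 1), and Car13, a carbonic anhydrase, by −2.41 (adjusted p = 0.00815; 0.0459).

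Some of the genes called at all 3 times are neighbours. Pigp and Ttc3, a ubiquitin ligase gene named here after its values were seen, lie side by side on chromosome 16 on opposite strands with 0 coding genes between them in the RefSeq order. Ttc3 was at 7.80, 8.48 and 8.41 in HET and at 6.49, 6.61 and 6.41 in KO (−1.73, SE 0.186, adjusted p = 0.000242; −1.95 and 6.27e-05 without HET replicate 1), and its KO signals too lay under the first quartile of each 2 h array. The 3 coding genes on either side of this pair were not called (differences −0.07 to 0.70). Pla2g5 and Pla2g2e, secreted phospholipases on chromosome 4 with 1 coding gene between them, were both higher, and of their family Pla2g2c, Pla2g2f and Pla2g2d, next to them, differed by −0.13, 0.05 and 0.05. Akr1c12 and Akr1c18, of a cluster on chromosome 13, have 2 coding genes between them, Akr1c13, which was called higher at 2 h and not untreated, and Akr1c19, which differed by 0.07. Akr1c14, on the other side of Akr1c18, differed by −0.06. The neighbours given here were looked at for their place after the values of the called genes were seen. Of 20 measured genes beside Wbp7 itself limma called 0, with 4 higher and 1 lower at an unadjusted p under 0.05. Over all 21137 probe sets these counts were 1837 and 1278.

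Genes higher in KO were led by Sesn1, a stress-induced inhibitor of mTORC1 signalling. It was at 7.90, 10.22 and 10.49 in HET and at 11.43, 11.68 and 11.83 in KO. HET replicate 1 was far below the other HET arrays, and leaving it out cut the difference from 2.11 (SE 0.47, adjusted p = 0.0279) to 1.29 (adjusted p = 0.0217). The call was lost without KO replicate 3 (adjusted p = 0.102). Akr1c12, an aldo-keto reductase, was at 6.25, 6.42 and 6.59 in HET and at 7.94, 8.21 and 8.32 in KO (1.74, SE 0.275, adjusted p = 0.0042; 1.66 and 0.0228 without HET replicate 1), and was called at all 3 times (1.90 untreated, 2.01 at 4 h). Its HET signals lay under the first quartile of each 2 h array. Akr1c18 and Akr1c13 differed by 0.86 and 0.84 (adjusted p = 0.0289 and 0.0443; 0.142 and 0.244 without HET replicate 1). These genes are close copies and may share probes.

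Pla2g5 was at 8.38, 8.65 and 8.74 in HET and at 10.05, 9.53 and 10.29 in KO (1.36, SE 0.241, adjusted p = 0.00868; 1.26 and 0.0468 without HET replicate 1). Pla2g2e differed by 1.03 (adjusted p = 0.00815; 1.04 and 0.0315). Gtsf1, a factor of the piRNA pathway, was at 6.75, 6.98 and 7.08 in HET and at 8.11, 8.24 and 8.29 in KO (1.28, SE 0.17, adjusted p = 0.00122), and was called at all 3 times. Mcoln3, an endolysosomal calcium channel, differed by 1.61 (adjusted p = 0.0129; 1.57 and 0.0564 without HET replicate 1). These genes were near their untreated levels in both genotypes, with LPS changes at 2 h of 0.02 and −0.35 for Pla2g5, 0.16 and 0.14 for Gtsf1 and −0.08 and −0.07 for Mcoln3 (HET and KO).

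Another set of higher genes had lower levels after 2 h of LPS than without it in HET cells. Id1, an inhibitor of basic helix-loop-helix factors, was at 8.87, 9.45 and 9.0 in HET and at 10.25, 10.21 and 10.38 in KO (1.17, SE 0.183, adjusted p = 0.00393; 1.06 and 0.0228 without HET replicate 1). Its LPS change at 2 h was −2.38 in HET and −1.19 in KO. Cnr2, the cannabinoid receptor of immune cells, was at 6.95, 7.08 and 7.16 in HET and at 8.21, 8.18 and 8.24 in KO (1.15, SE 0.167, adjusted p = 0.00222; 1.09 and 0.014). Fam78a (1.33, adjusted p = 0.00129), Tor4a (1.18, 0.00182), Lyl1, a haematopoietic transcription factor (0.91, 0.00383), Pwwp2b (0.89, 0.000656), Flcn, the folliculin gene (0.81, 0.00157), and Hexim1, an inhibitor of transcription elongation (0.75, 0.00826), were called whichever array was left out. Of 19 p53 targets and sestrins 2 were called higher, Sesn1 and Trp53inp1 (0.88, adjusted p = 0.0415; 0.196 without HET replicate 1), and of 20 sterol genes 1, Mvd (0.53, adjusted p = 0.0353; 0.169 without it).

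The probe sets were also grouped by their LPS response at 4 h, a difference of untreated and 4 h arrays whose adjusted p rests on a spread that the 2 h arrays share. Of 899 probe sets that rose at least 2-fold by 4 h in HET cells at an adjusted p under 0.05, 231 (25.7%) were called lower in KO at 2 h and 0 higher. Of 1057 that fell at least 2-fold, 104 (9.84%) were called higher and 5 lower (0.473%). Of the 19181 others, 98 (0.511%) were called lower and 147 (0.766%) higher. The median differences were −0.60, 0.44 and 0.00. Without HET replicate 1 at 2 h, 65 of the 899 were called lower and 0 higher, and 24 of the 1057 were called higher and 4 lower. Grouping by the KO response instead gave 190 of 618 risen probe sets called lower (30.7%) and 0 higher, and 48 of 342 fallen ones called higher (14%) and 2 lower. Arrays that share genotype and number deviated alike at different times, so that the groupings are not fully independent of the 2 h values.

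Whether the KO minus HET difference at 2 h was unequal to that without LPS was tested as an interaction. Without a block limma called 0 probe sets, with 1170 at an unadjusted p under 0.05. Within a genotype, arrays that share a number deviated in the same direction at different times in all 18 pairs, and with the replicate number within genotype as a block (an alternative added after this was seen) 35 probe sets (0.166%) of 32 genes were called, 26 with a more negative and 9 with a more positive difference at 2 h. Of these, 32 were also called at 2 h. Without HET replicate 1 at all 3 times 7 were called, 6 of them among the 35.

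Zhx2, Rasgrp1, Abtb2 and Lpar1, named after their values were seen, were among those 6. Zhx2, a transcriptional repressor, differed by 0.35 untreated and by −1.25 at 2 h, a change of −1.60 (adjusted p with the block 0.00304; −1.41 and 0.00372 without HET replicate 1). Rasgrp1, an activator of Ras, differed by −0.11 untreated, −1.72 at 2 h and −1.90 at 4 h (change −1.61, adjusted p with the block 0.00304; −1.54 and 0.00802). Abtb2 and Lpar1, a receptor for lysophosphatidic acid, changed by −1.45 and −1.57 (adjusted p with the block 0.00318 and 0.0149). Ifnb1 was 0.01 apart untreated and changed by −2.22 (adjusted p with the block 0.0229; −1.98 and 0.00534 without HET replicate 1), and Peli1 by −0.80 (0.0195; −0.84 and 0.0275).

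The change of Il6 was −2.75 (adjusted p with the block 0.0185), from −0.19 untreated, and −2.47 without HET replicate 1 (0.0557). At 2 h Il6 was 7.32 above untreated in HET and 4.57 in KO. Its difference at 4 h was −0.86 (adjusted p = 0.0998). Fos changed by 1.62, from −0.20 untreated (adjusted p with the block 0.0408; 1.45 and 0.0625 without HET replicate 1). The other direction in time, 4 h against 2 h, gave 1 called probe set without the block, Angpt1, and 2 with it, Angpt1 and Cysltr2, named here after their values were seen, with 756 at an unadjusted p under 0.05 without the block.

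**Figure D4:**
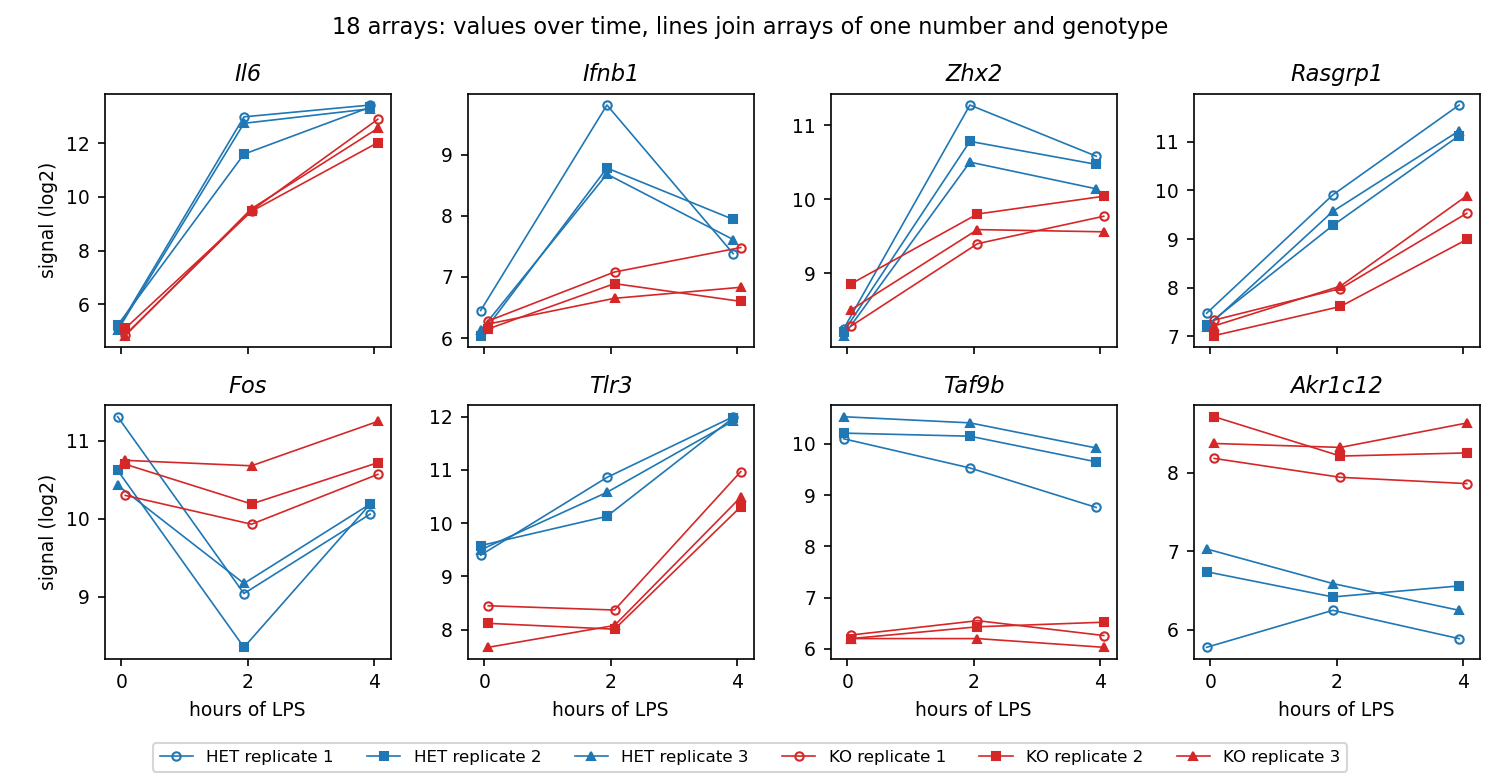
Signal (log2, vertical axis) of 8 genes on all 18 arrays against hours of LPS (horizontal axis); HET in blue, KO in red, lines join arrays of the same number and genotype, open symbols are replicate 1. Il6 and Ifnb1 start together and part at 2 h, Tlr3, Taf9b and Akr1c12 are apart at every time, and Fos falls at 2 h in HET, with a change of −1.93.

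The remaining lists held few calls. Over all probe sets, 1.58% were called lower and 1.19% higher. Cell cycle genes had the highest list median, 0.99, with 0 of 36 called and 0 at an unadjusted p under 0.05 in the limma fit, and the median was 0.02 without HET replicate 1. MHC class II and co-stimulatory genes had a median of −0.69 (−0.29 without that array), with 0 of 9 called and 2 at an unadjusted p under 0.05. Of 17 genes of arginine, itaconate and prostanoid metabolism 1 was called lower (Nos2) and 1 higher (Pla2g5), and of 15 complement and coagulation genes 1 lower, complement factor B (Cfb, −1.85, adjusted p = 0.0301; 0.121 without HET replicate 1). The H3K4 methyltransferase complex list, of which Wbp7 is a member, had a median of 0.26 (0.14 without that array), with 0 of 19 called and 6 at an unadjusted p under 0.05. Glycolysis and hypoxia genes (median −0.03) and nucleolar ribosome assembly genes (−0.01) had 0 calls of 19 and 22, with 4 and 1 at an unadjusted p under 0.05. Of 22 Nrf2 targets and aldo-keto reductases the 3 Akr1c genes above were called higher, and of 19 unfolded protein and integrated stress genes Ppp1r15a was called lower.

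**Figure D5:**
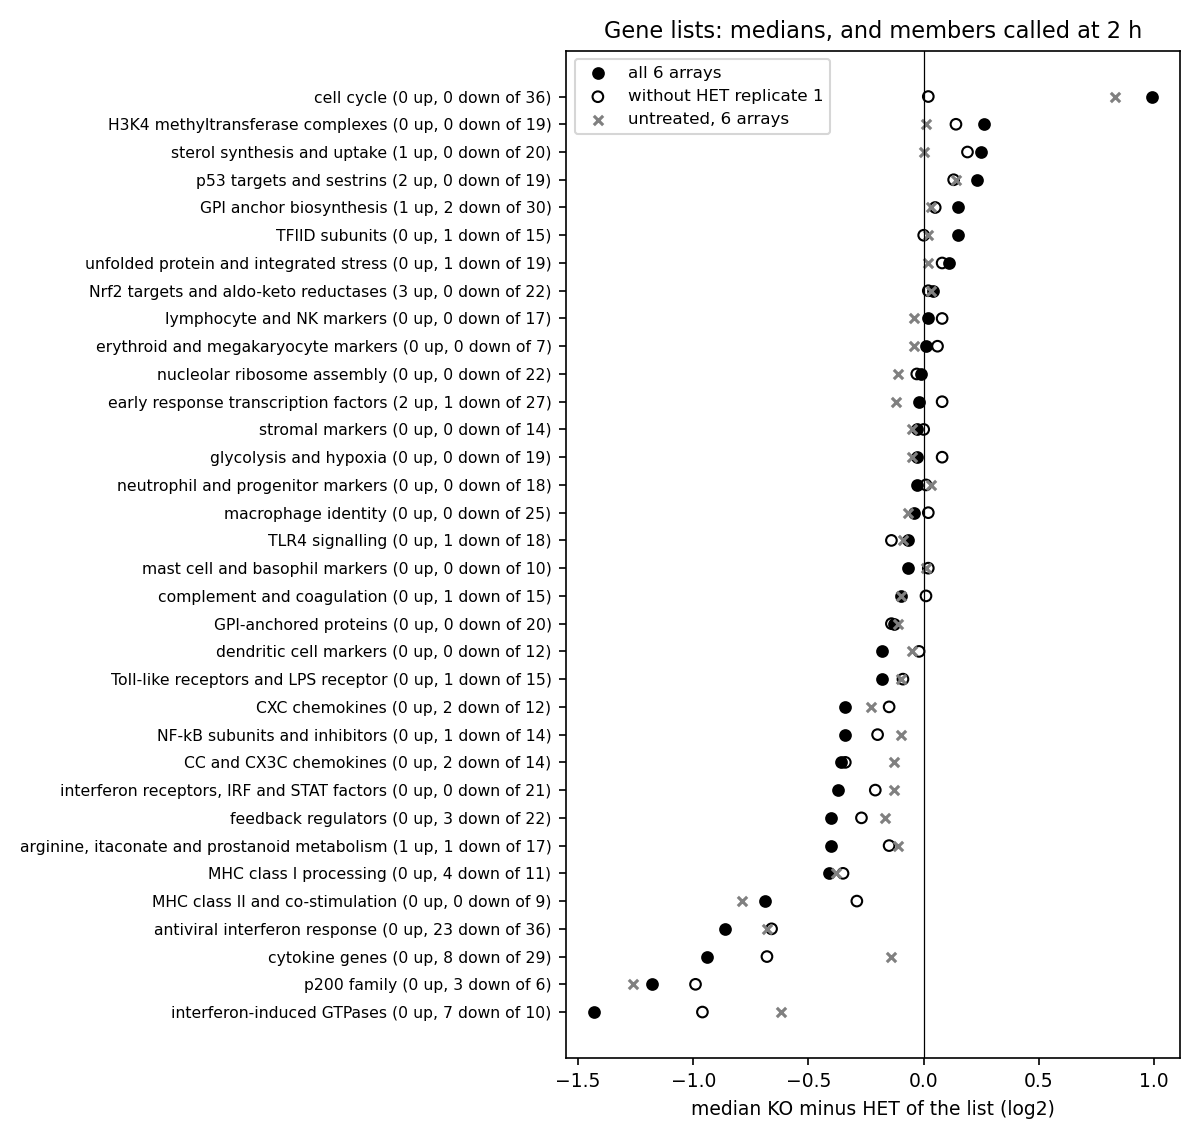
Median KO minus HET difference (log2) of each of 34 gene lists at 2 h with all 6 arrays (filled), without HET replicate 1 (open) and in untreated cells (crosses); labels give the members called higher (up) and lower (down) of those measured. The interferon-induced GTPases have the lowest median, −1.43, and the cell cycle list falls from 0.99 to 0.02 without HET replicate 1.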

How the data were processed

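RNA of 18 macrophage samples was measured on Affymetrix arrays. The authors deposited log2 signals per probe set, made by RMA in Partek 6.5 per the submitters' processing notes; RMA subtracts background, quantile-normalizes and summarizes probes, so that levels are relative within the series. Array medians were 8.05 to 8.13, and depth is not defined for arrays: their number limits the precision. No per-sample column was left unused.

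Of 25344 probe sets, 1530 with several genes and 2677 with none in the platform annotation were left out. 1 linear model over all 18 arrays and 6 groups was fitted with limma 3.58.1 (R 4.3.3), with moderated statistics (12 residual degrees of freedom) and Benjamini-Hochberg adjustment over 21137 probe sets; "called" means an adjusted p under 0.05. SDs are over the 3 arrays of a group, SEs are those of the fit. An exact permutation test of 3 against 3 arrays cannot go below 0.1. The model was tested on simulated data. Tables and figures were made with Python 3.11.15 and matplotlib 3.10.9.

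A list counts 1 probe set per gene, the one with the highest mean. Lists covered Wbp7 complexes, LPS and interferon responses, GPI anchors, metabolism, stress, cell cycle and cell type markers. Named genes were Wbp7, Pigp and Cd14, the 15 highest and 15 lowest called, up to 20 per direction called whichever array was left out, and up to 5 called and 3 uncalled members per list; others are said to be named after their values were seen. The comparison, lists and rule were chosen with earlier results of these data known. The grouping by LPS response was chosen after seeing the data.

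Same-numbered arrays of HET and KO did not deviate together (correlations −0.34 to 0.25), whereas those of 1 genotype did across times (0.32 to 0.79, 18 pairs), so the replicate number within genotype was added as a block for comparisons between times. Alternatives were scaling, probe set filters and summaries, priors, weights, blocks and left-out arrays.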

Additional observations from a re-analysis of the deposited data

Results flagged for a closer look

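For 20 of the 122 probe sets named, the KO minus HET difference at 2 h was unequal to that in untreated cells in the limma interaction test with the replicate number within genotype as a block (adjusted p under 0.05), and without the block none of them passed. Over all 21137 probe sets 35 (0.166%) passed, and the block was added after the data were seen. Many genes were named for their 2 h differences, and 4 after these interaction values were seen, so the values tested partly picked the 20. Among cytokine and chemokine genes the difference moved down, by −2.75 for Il6, −2.22 for Ifnb1, −1.64 for Tnfsf15, −1.43 for Cxcl11, −1.40 for Il15 and −0.73 for Il18. It also moved down for Gbp5 (−1.04), Nos2 (−1.56), Peli1 (−0.80), Ptch1 (−1.59) and Enpp4 (−1.47), an ectonucleotide hydrolase. Of 4 genes named after their values were seen, it moved down by −1.60 for Zhx2, −1.45 for Abtb2, −1.61 for Rasgrp1 and −1.57 for Lpar1. It moved up for Fos (1.62), Tor4a (1.35), Fam78a (1.18), Cnr2 (1.13) and Pwwp2b (0.97). Without HET replicate 1 at all 3 times, Ifnb1, Peli1, Zhx2, Abtb2, Rasgrp1 and Lpar1 passed with adjusted p-values of 0.00534, 0.0275, 0.00372, 0.00372, 0.00802 and 0.00372, and the other 14 did not.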

How the results depend on the processing

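Of 94 named probe sets called in the report none changed direction under any alternative. Of these, 41 lost their call without the 2 h array of HET replicate 1, 21 without that replicate at all 3 times and 41 without KO replicate 2. With the 6 arrays alone, where the spread comes from these arrays only, 74 lost it. With a random replicate block within genotype 5 lost it. The 585 calls became 903 with array weights (466 higher), 929 with the number as a replicate block across genotypes (446 higher), 190 with a 2-fold minimum (22 higher, 168 lower), 35 with the 6 arrays alone (6 and 29) and 35 with these and a replicate block (4 and 31). Leaving out 1 array gave 162 to 1015 calls, 45 to 511 higher and 116 to 504 lower, and without HET replicate 1 at all times 167 were higher and 272 lower. Centring gave 151 higher and quantile normalization 159. The 2 h against untreated interaction, 0 calls as planned (1170 at an unadjusted p under 0.05 in limma), had 1 with centring, quantile normalization, an intensity trend or no HET replicate 1 at all times, 2 without dim probe sets or with the replicate block across genotypes, 6 with weights, 39 with a random replicate block within genotype, 35 with a fixed replicate block within genotype, 7 with that and no HET replicate 1, and 0 to 44 with 1 array left out, the most without HET replicate 2. The 4 h against 2 h interaction, 1 call, had 2 with quantile normalization, the replicate block across genotypes or the fixed block within genotype, 3 with the random block, 8 with weights, 10 with that fixed block and no HET replicate 1, 0 without dim probe sets, and 0 to 1 with 1 array left out. Csf2, not called, ranged from −0.33 to 0.82 with 1 array left out, and was −0.13 without HET replicate 1 (also at all times), −0.33 without HET replicate 3 and −0.26 without KO replicate 1. Wbp7, not called, ranged from −0.22 to 0.10, and was 0.10 without HET replicate 2 and 0.04 without KO replicate 2. The causes were not tested.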
